A study of Mus musculus with 6 samples.

Results

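The 10 genes described here are genes of fat cells and of lipid storage, followed in mouse bone marrow: Pparg, Adipoq, Cfd, Fabp4, Lpl, Car3, Plin1, Plin4, Cidec and Pnpla2. They were chosen by symbol, with earlier results of these data known, and all 10 were found among the 56496 genes of the deposited expression table. The marrow came from female BALB/c mice whose 4T1 tumour had been surgically removed (4T1 is a line of mouse breast cancer cells). The 3 Onway libraries (Onway 1, Onway 2 and Onway 3) came from mice that received Onway by gavage for 2 weeks, and the 3 Control libraries (Control 4, Control 5 and Control 6) from mice that did not. The sources used here give neither the contents of Onway nor the animals' ages, and do not say whether each library is 1 mouse. Every p-value therefore sets the group difference only against the spread among these libraries, which may be technical. All 6 libraries carry the label WT. The labels mark Control as day 0 and Onway as day 14, and that day cannot be told apart from the treatment. One label bears on fat cell genes directly: the extraction text lists dexamethasone, isobutylmethylxanthine and insulin, the components of a culture medium that turns precursor cells into fat cells. The design text speaks of cells taken from the mice and names no culture, and whether that text applies to these libraries is not known.

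Fat cells are a normal part of the bone marrow. Their differentiation is driven by the nuclear receptor encoded by Pparg, which acts with the C/EBP transcription factors and turns on genes for hormones, for fatty acid uptake and for the coat of the lipid droplet. A marrow stromal lineage that carries Lepr and Cxcl12 also expresses Adipoq and Lpl, without the large droplet of a mature fat cell. Several of the 10 genes are active elsewhere too: Fabp4 in capillary endothelium, Lpl and Pparg in macrophages, Car3 in skeletal muscle, and Pnpla2 in most tissues.

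Values are TPM, a length-corrected share of a library scaled to a sum of 1000000, summed over the transcripts of each gene. TPM keeps no read depth, so no counting error can be given. Haemoglobin genes took between 9.39% (Onway 2) and 33.9% (Onway 3) of the TPM. Marrow markers were present: 8 erythroid genes and 10 neutrophil genes were all measured at a mean above 1 TPM, and the neutrophil list summed to between 97873 and 212484 TPM in each library. The authors also deposited a mean per group that holds 1 value more than the 3 libraries. What that value amounts to, 4 times the authors' mean less the 3 libraries, was worked out after seeing the data. It is called the further value and is given for the tested members and for some other genes and sums. It entered no test.

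Car3 fell 17.3-fold in Onway marrow. The mean levels of Pparg, Adipoq, Cfd, Fabp4 and Lpl were 2.55- to 8.89-fold lower in Onway, each short of the threshold, the droplet coat genes Plin1, Plin4 and Cidec were near 0 in both groups, and the groups of the lipase gene Pnpla2 overlapped. For 6 of the 10 genes (Pparg, Adipoq, Cfd, Fabp4, Lpl and Car3) all 3 Onway libraries lay below all 3 Control libraries, a pattern shown by 11.5% of the 14192 tested genes. No member had all Onway libraries above all Control libraries, which 6.95% of the tested genes did, so that 18.4% were apart in one direction or the other. Tested genes are those whose 6 libraries averaged 1 TPM or more, and 7 of the 10 were among them. Cfd entered with a mean of 1.00 TPM that came from the Control libraries. With limma on log2(TPM + 1) and Benjamini-Hochberg adjustment over all tested genes, 1 member, Car3, fell past an adjusted p of 0.05, where 2.99% of all tested genes were called lower, and no member rose (0.233% of all tested genes were called higher, and 3.22% either way). At an unadjusted p under 0.05, 6 members were lower, as were 8.42% of all tested genes, and 0 were higher, against 4.95% of all. Because the members were chosen with earlier results known, the shares of all genes are given for scale and are no test of the list. The count of called members was 4 without Control 5 and 2 without Onway 3.

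**Figure D1:**
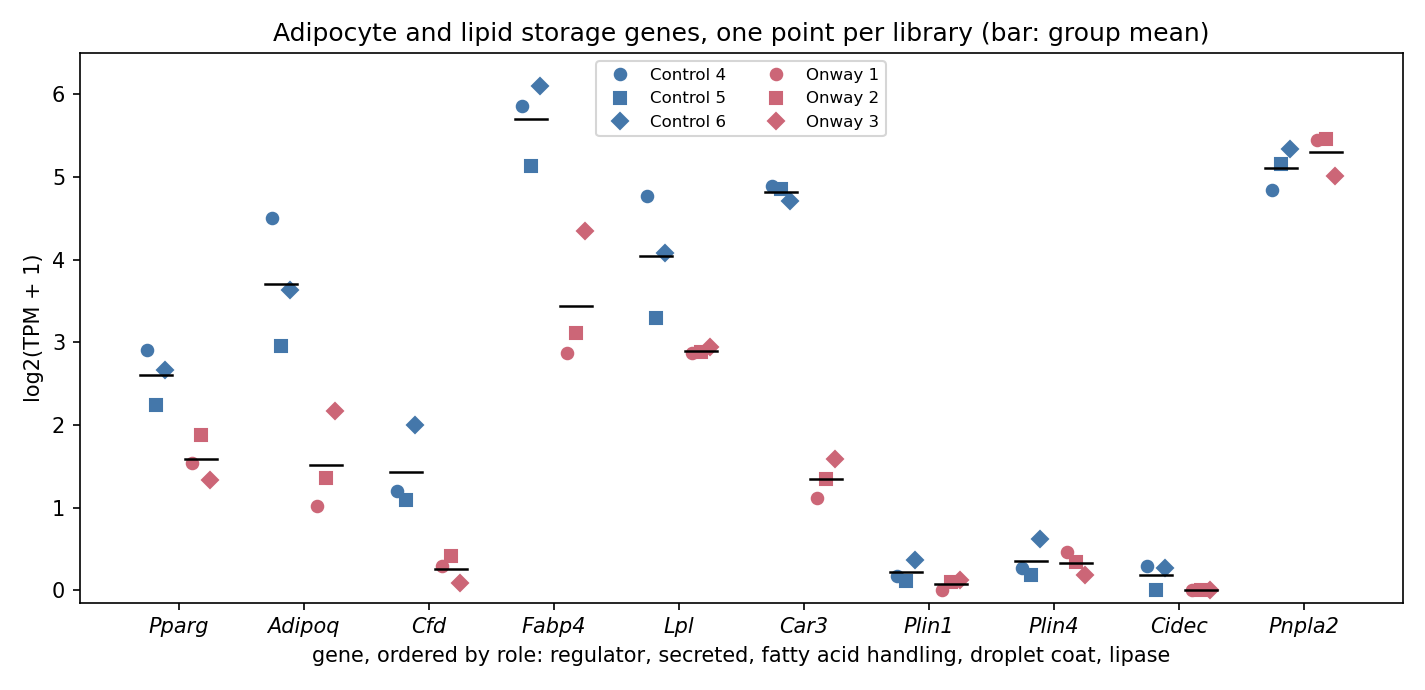
Level of each of the 10 genes as log2(TPM + 1), with 1 point per library (blue Control, red Onway) and a bar at the group mean. Groups are apart for 6 genes from Pparg to Car3, Plin1, Plin4 and Cidec lie near 0, and the groups of Pnpla2 overlap.

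The start regions are given first for the regulator Pparg, whose forms start at separate promoters and can be read apart by transcript. The table of RefSeq promoters (GRCm38.p6, 250 bases before to 50 after the start) held 10 windows for 7 of the 10 genes, and none for Fabp4, Lpl or Car3. Of the Pparg windows 2 are shown. The first is built on a RefSeq start at base 115362349, which is the GENCODE start of the short transcript Pparg-206, and it also holds the start of Pparg-204, 57 bases upstream, from which the general form of the receptor is made. The other is built on the start of Pparg-201, which encodes the fat cell form. The windows of the secreted proteins Adipoq and Cfd are shown beside them. Capitals mark matches, on either strand, of the CAAT box (CCAAT), of the unit that a nuclear receptor contacts (AGGTCA) and of the TATA box (TATAAA).
Pparg, RefSeq start near Pparg-204, chr6:115362099-115362398, plus strand: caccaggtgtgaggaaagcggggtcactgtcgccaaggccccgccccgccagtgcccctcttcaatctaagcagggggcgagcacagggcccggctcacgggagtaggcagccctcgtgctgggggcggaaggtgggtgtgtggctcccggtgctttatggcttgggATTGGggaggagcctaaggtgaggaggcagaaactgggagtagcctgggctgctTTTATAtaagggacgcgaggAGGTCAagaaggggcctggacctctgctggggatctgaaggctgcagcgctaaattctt
Pparg, start of Pparg-201, chr6:115421816-115422115, plus strand: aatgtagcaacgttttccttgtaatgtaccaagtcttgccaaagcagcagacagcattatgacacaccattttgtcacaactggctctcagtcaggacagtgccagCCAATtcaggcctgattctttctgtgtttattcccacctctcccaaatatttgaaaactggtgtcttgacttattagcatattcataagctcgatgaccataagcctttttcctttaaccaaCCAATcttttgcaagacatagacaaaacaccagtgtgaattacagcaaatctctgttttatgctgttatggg
Adipoq, chr16:23146286-23146585, plus strand: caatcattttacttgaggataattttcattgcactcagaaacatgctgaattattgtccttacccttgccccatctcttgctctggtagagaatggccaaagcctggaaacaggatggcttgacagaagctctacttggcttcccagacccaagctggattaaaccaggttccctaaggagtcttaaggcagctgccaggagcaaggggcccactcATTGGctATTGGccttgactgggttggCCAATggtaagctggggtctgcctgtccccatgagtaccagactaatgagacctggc
Cfd, chr10:79890603-79890902, plus strand: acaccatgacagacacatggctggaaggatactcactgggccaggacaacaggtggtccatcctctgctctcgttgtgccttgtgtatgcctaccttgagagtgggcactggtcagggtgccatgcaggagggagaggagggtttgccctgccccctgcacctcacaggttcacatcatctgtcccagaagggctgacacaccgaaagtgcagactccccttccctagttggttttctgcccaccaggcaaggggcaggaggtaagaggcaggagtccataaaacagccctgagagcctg
CCAAT lay in 37.4% of all 32851 RefSeq windows of 300 bases, and in 4 of the 10 member windows, 3 times in that of Adipoq. AGGTCA lay in 16.3% of all windows and in 2 member windows, both of Pparg, and TATAAA in 13.6% of all and in 1, the first Pparg window. There TATAAA (on the minus strand) began 29 bases and AGGTCA 9 bases before the RefSeq start, and thus both lay downstream of the GENCODE start of Pparg-204. Matches of these motifs did not overlap each other in the member windows. The full binding element of the receptor, 2 copies of AGGTCA with 1 base between them, was in 0.04% of all windows and in 0 member windows, and the C/EBP palindrome TTGCGCAA in 0.18% and 0. These are matches of letters and say nothing of binding.

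Pparg (chr6:115360951-115490399, GRCm38, plus strand) is the regulator of the group. Its level was 6.49, 3.72 and 5.36 TPM in libraries Control 4, Control 5 and Control 6, and 1.91, 2.67 and 1.53 TPM in Onway 1, Onway 2 and Onway 3. The lowest Control library was above the highest Onway library. The means were 5.19 ± 1.39 and 2.04 ± 0.580 TPM (SD, n = 3 per group, as for all means below), a 2.55-fold difference, and the log2 fold change of TPM + 1 was −1.02 (SE 0.25, adjusted p = 0.088). Over 14 alternatives the adjusted p ran from 0.043, with median-of-ratios scaling, to 0.29. The further values were 2.07 TPM for Control and 2.18 TPM for Onway, so the added Control value lay within the range of the Onway libraries.

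Nearly all Pparg RNA was of the general form. Transcript Pparg-204, with 475 codons, was at 5.35, 3.33 and 4.27 TPM in the Control libraries and at 1.82, 2.33 and 1.47 TPM in the Onway libraries. It made up 83.2% of the gene's TPM in Control and 92.0% in Onway. Another transcript of the same 475 codons, Pparg-202, which starts 1341 bases upstream, was at 0.663 ± 0.250 and 0.163 ± 0.154 TPM. The fat cell form, Pparg-201, starts 59774 bases downstream of Pparg-204 and has 30 codons more (505). It was listed at 0.37 TPM in Control 6 and at 0 in the other 5 libraries.

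Adipoq, which encodes the fat cell hormone adiponectin (chr16:23146536-23158028, GRCm38), was at 21.8, 6.78 and 11.4 TPM in libraries Control 4, Control 5 and Control 6, and at 1.02, 1.56 and 3.50 TPM in Onway 1, Onway 2 and Onway 3. The groups did not overlap, but the Control libraries spread over a wider range than the gap between the groups. The difference of means was 6.57-fold (13.3 ± 7.68 against 2.03 ± 1.30 TPM), with a log2 fold change of −2.19 (SE 0.46, adjusted p = 0.063). It passed the threshold without Control 5 (adjusted p = 0.020), without both Control 4 and Onway 3 (0.045) and with only Ensembl transcripts summed (0.049), and reached up to 0.20 in the other alternatives. All of it came from 1 transcript of 247 codons, Adipoq-201. The further values were 8.43 TPM for Control and 6.83 TPM in Onway, so the added Onway value lay above Control 5. The authors' means, which include these, were 12.1 and 3.23 TPM.

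Cfd (chr10:79890853-79892655, GRCm38, plus strand), which encodes complement factor D, or adipsin, a protease secreted by fat cells, was scarce. Control 4, Control 5 and Control 6 had 1.29, 1.13 and 3.00 TPM, and Onway 1, Onway 2 and Onway 3 had 0.22, 0.33 and 0.06 TPM. Every Onway library was below every Control library, at 0.203 ± 0.136 against 1.81 ± 1.04 TPM, an 8.89-fold difference of means. The log2 fold change of TPM + 1, which understates changes of genes this low, was −1.17 (SE 0.31, adjusted p = 0.12, and 0.082 to 0.22 in the 11 alternatives that kept Cfd above the filter). The 2 annotated transcripts, of 259 and 258 codons, start at the same base and both contributed, with means of 0.797 and 1.01 TPM in Control. The further values were 2.31 TPM for Control and 0.07 TPM in Onway, each within the range of its group.

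Fabp4 (chr3:10204088-10208576, GRCm38, minus strand) encodes the fatty acid carrier of fat cells, which endothelium also makes, and had the highest Control mean of the members. It was at 57.2, 34.0 and 67.6 TPM in libraries Control 4, Control 5 and Control 6, and at 6.30, 7.68 and 19.4 TPM in Onway 1, Onway 2 and Onway 3. The groups were apart, and Onway 3 stood above the other Onway libraries. The means of 52.9 ± 17.2 and 11.1 ± 7.17 TPM differed 4.76-fold, with a log2 fold change of −2.25 (SE 0.44, adjusted p = 0.053). The adjusted p was 0.017 without Onway 3, 0.043 without Control 5, 0.049 with a pseudocount of 5 and 0.041 without trend or robust moderation, and 0.17 without Control 4, without Control 6 or without Onway 2. Its 3 measured transcripts were all lower in the Onway mean: the main one of 132 codons 4.50-fold, an intron-retaining one 6.77-fold and one assembled by the authors 6.92-fold. The further values ran the other way, with 18.7 TPM for Control and 31.9 TPM for Onway.

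Lpl (chr8:68880491-68907448, GRCm38, plus strand) encodes lipoprotein lipase, which frees fatty acids from blood lipoproteins for uptake. Its level was 26.2, 8.81 and 15.9 TPM in libraries Control 4, Control 5 and Control 6, and 6.29, 6.37 and 6.67 TPM in Onway 1, Onway 2 and Onway 3. The Onway libraries were nearly equal, and Control 5 was close above them. The means, 17.0 ± 8.76 and 6.44 ± 0.200 TPM, differed 2.63-fold (log2 fold change −1.15, SE 0.35, adjusted p = 0.19, 0.018 without Control 5 and up to 0.45 in the other alternatives).

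The Control levels of Lpl were uneven in several transcripts, most of all in Lpl-203. The coding transcript Lpl-201 (474 codons) was at 9.72, 5.90 and 8.51 TPM in the Control libraries against 1.97, 2.54 and 3.60 TPM in Onway, a 2.98-fold difference of means. Lpl-203, annotated as a target of nonsense-mediated decay, was at 9.33 TPM in Control 4, 0.35 TPM in Control 5 and 2.32 TPM in Control 6, against 3.19, 1.93 and 1.15 TPM in Onway. A transcript assembled by the authors was at 7.01, 2.29 and 4.84 TPM in the Control libraries against 0.97, 1.55 and 1.77 TPM in Onway. The groups were apart for Lpl-201 and for the assembled transcript, and overlapped for Lpl-203. The further values of the gene were 10.6 TPM for Control and 6.49 TPM in Onway, each within the range of its group.

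**Figure D2:**
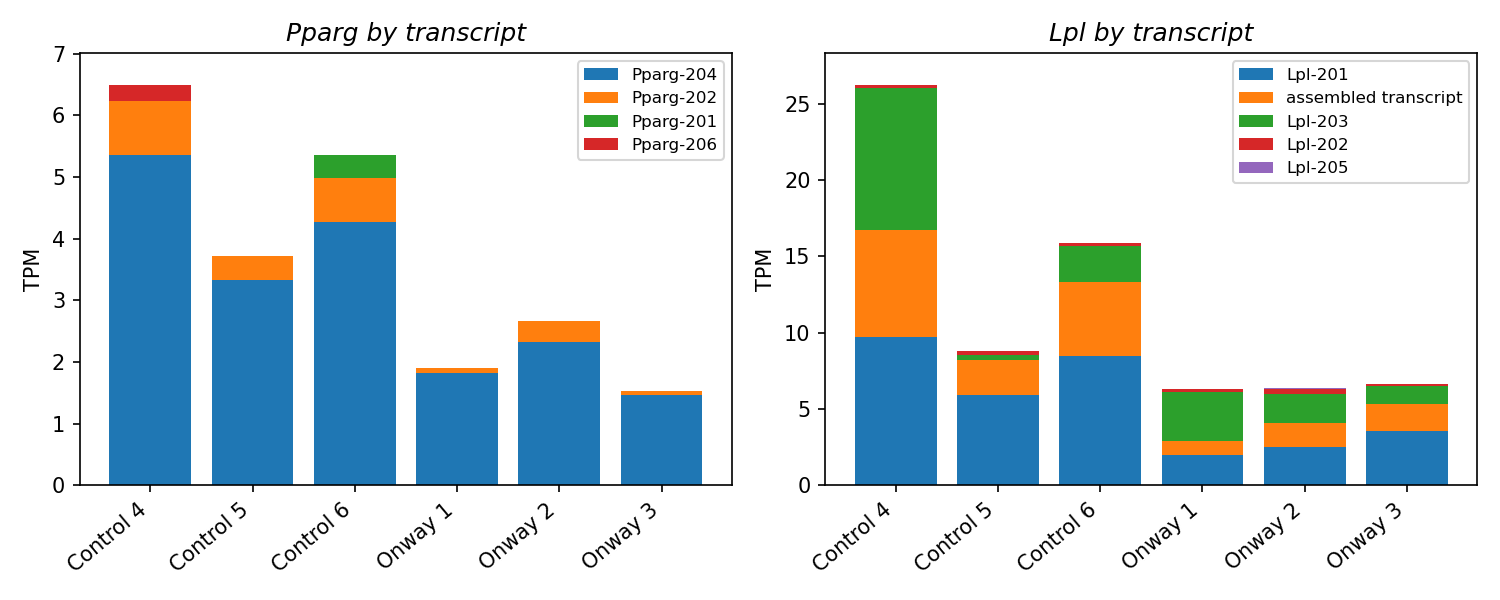
TPM of each transcript of Pparg (left) and Lpl (right), stacked to the gene's level in each of the 6 libraries. Pparg-204 fills most of every Pparg bar and Pparg-201 shows in Control 6 at 0.37 TPM, while Lpl-203 makes up 9.33 TPM of the tall Lpl bar of Control 4.

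Car3 (chr3:14863512-14872523, GRCm38, plus strand), which encodes carbonic anhydrase 3, abundant in the cytosol of fat cells and of slow muscle fibres, had the widest gap. It was at 28.6, 28.0 and 25.2 TPM in libraries Control 4, Control 5 and Control 6, and at 1.16, 1.55 and 2.01 TPM in Onway 1, Onway 2 and Onway 3. Libraries of a group lay close together and the groups far apart. Car3 fell 17.3-fold between the means (27.3 ± 1.81 to 1.57 ± 0.425 TPM), with a log2 fold change of −3.47 (SE 0.19, adjusted p = 0.00048), and its adjusted p was at most 0.0077 in all 15 alternatives. Its main transcript of 260 codons was at 23.5 ± 1.12 and 1.03 ± 0.416 TPM. The further value in Control, 1.65 TPM, lay with the Onway libraries and with the further Onway value of 1.19 TPM.

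Skeletal muscle markers moved with Car3. The 12 muscle genes summed to 1778 TPM in Control 4, 662 in Control 5 and 4222 in Control 6, against 13.5 to 19.7 TPM in the Onway libraries. Of the 12, 10 fell, where 2.99% of all tested genes did (8 of the 12 passed the filter only through Control). Among the Control libraries, Car3 was at 28.0 TPM in that with the least muscle RNA (Control 5) and at 25.2 TPM in that with the most (Control 6). The further Control value was 1.65 TPM for Car3 and 10.4 TPM for the muscle sum. The part of muscle RNA in the fall of Car3 was not tested.

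The genes of the droplet itself were near 0. Plin1 (chr7:79720218-79732903, GRCm38, minus strand), which encodes the coat protein that controls access of lipases to the fat cell's droplet, was at 0.13, 0.08 and 0.29 TPM in the Control libraries and at 0, 0.07 and 0.09 TPM in the Onway libraries. Plin4 (chr17:56100591-56109803, minus strand), a coat protein of small new droplets, was at 0.20, 0.14 and 0.54 TPM and at 0.38, 0.27 and 0.14 TPM. Cidec (chr6:113424634-113435760, minus strand), which promotes droplet fusion into 1 large droplet, was listed at 0.23, 0 and 0.20 TPM in Control and at 0 in each Onway library. Groups of Plin1, Plin4 and Cidec overlapped or touched, and none reached the 1 TPM mean needed for the test. In no library did their sum exceed 1.03 TPM, in libraries where Fabp4 was at 6.30 TPM or more. In the fit without a filter on low values their adjusted p was 0.59, 0.96 and 0.45.

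Pnpla2 (chr7:141455198-141460743, GRCm38, plus strand), which encodes the lipase that makes the first cut in stored triglyceride, was the exception among the measurable members. It was at 27.8, 34.7 and 39.4 TPM in libraries Control 4, Control 5 and Control 6, and at 42.6, 43.1 and 31.2 TPM in Onway 1, Onway 2 and Onway 3. Onway 1 and Onway 2 were above all Control libraries, and Onway 3 lay inside the Control range. The log2 fold change was 0.19 (SE 0.20, 95% interval −0.28 to 0.67, adjusted p = 0.75), so the interval leaves room for a modest change in either direction. The full coding transcript Pnpla2-203 (486 codons) was at 30.9 ± 5.23 and 32.3 ± 4.76 TPM. The further values were 25.5 TPM for Control, just below its libraries, and 34.8 TPM in Onway, inside their range. Summed over all 10 genes, the libraries held 170, 117 and 169 TPM in Control and 59.9, 63.6 and 64.5 TPM in Onway, and the further values 69.5 and 83.9 TPM, so the lower level in Onway was not shown by the further pair.

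**Figure D3:**
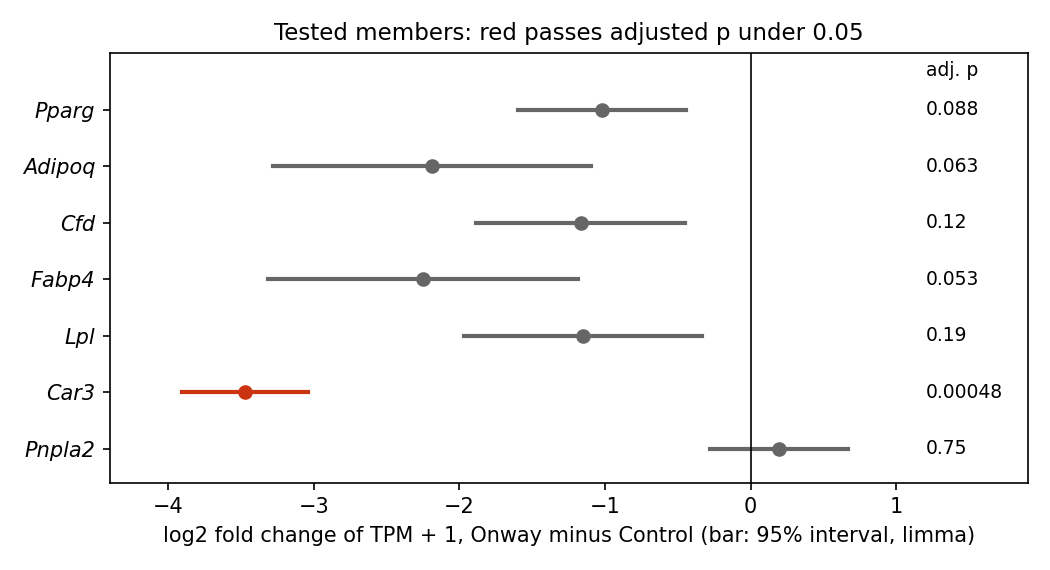
Log2 fold change of TPM + 1 (Onway minus Control) of the 7 tested members with the 95% interval of limma for each gene, not adjusted for the number of genes, and the adjusted p at the right. Car3 (red) passes the threshold at −3.47, 5 genes have intervals below 0 without passing it, and that of Pnpla2 spans 0.

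Members were then compared with Adipoq within each library, as differences of log2(TPM + 1), with an exact two-sided permutation test over the 20 assignments of 6 libraries, whose smallest p is 0.1. For Fabp4 the difference from Adipoq was 2.00 in Control and 1.93 in Onway, a change of −0.07 (exact p = 1). For Car3 it went from 1.12 in Control to −0.16 in Onway, so Car3 dropped by 1.28 more than Adipoq on the log2 scale, without overlap between the groups (exact permutation p = 0.1, 0.15 adjusted over 9 comparisons). For Lpl and Pnpla2 the difference was larger in Onway by 1.04 and 2.38, again without overlap (exact permutation p = 0.1 and adjusted p = 0.15 for each). For Pparg and Cfd it was larger in Onway by 1.17 and 1.02, with overlapping groups (exact permutation p = 0.2 and 0.3, adjusted p = 0.26 and 0.34). With 3 libraries against 3 none of these could reach 0.05, and for Plin1, Plin4 and Cidec such differences rest on Adipoq, since they were near 0 throughout.

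Genes with a similar pattern were sought over the 6 libraries, by the root mean square difference of log2(TPM + 1) after each gene was centred on its own mean. Nearest to Adipoq were Acp5, an acid phosphatase of osteoclasts, Stab2, a scavenger receptor of sinusoidal endothelium, the collagen gene Col6a2, the growth factor gene Gas6 and the lipid phosphatase gene Plpp3, with differences of 0.27 to 0.36 on the log2 scale. Among the members Fabp4 was closest to Adipoq (0.36). Nearest to Car3 were the matrix proteoglycan gene Bgn, the fibroblast protease gene Fap, Timp3, Cald1 and Igfbp5, with 0.17 to 0.30, while Fabp4 and Adipoq were at 0.77 and 0.81. These distances describe 6 libraries in which group differences dominate.

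Marker sums of other cells that carry the members were lower in Onway as well. The 12 genes of marrow stroma summed to 416 TPM in Control 4, 231 in Control 5 and 311 in Control 6, against 25.6 TPM in Onway 1, 33.4 in Onway 2 and 41.8 in Onway 3. All 10 that were tested fell, where 2.99% of all tested genes did, but 6 of the 10 had Onway means below 1 TPM and so passed the filter only through the Control libraries. The order of libraries within each group was Control 4 over Control 6 over Control 5 and Onway 3 over Onway 2 over Onway 1. This was the order of Adipoq, and also that of Lpl and of the endothelial sum. The Control order was that of the macrophage and erythroid sums as well. Cxcl12, the stromal chemokine that retains stem cells, was at 276, 117 and 192 TPM in the Control libraries against 17.5, 23.8 and 32.8 TPM in Onway (log2 fold change −2.89, adjusted p = 0.0059). Its further values were 71.2 TPM for Control and 65.8 TPM for Onway. Cxcl12 made up most of the stromal sum in every library, and the order of the sum was its order. Not all genes of the list kept that order. Dcn was at 33.9, 49.5 and 28.4 TPM in the Control libraries and at 1.21, 1.36 and 0.89 TPM in Onway. Of 12 endothelial genes 8 fell (6 of the 12 passed the filter only through Control), and the list summed to between 91.3 and 114 TPM in Control and between 34.3 and 42.4 TPM in Onway. Of 11 tested macrophage genes none passed the threshold. Their median log2 fold change was −1.10, and 7 were lower in all Onway libraries, as were 11.5% of all tested genes. The sign was negative for 9 and positive for 2, Csf1r and Adgre1 (log2 fold changes 0.52 and 0.17). The macrophage list summed to between 264 and 450 TPM in Control and between 214 and 260 TPM in Onway. Lists of cells that are not known for these genes differed too: all 8 megakaryocyte genes fell, from a sum of 1929 to 2181 TPM in Control to 94.4 to 151 TPM in Onway. None of 8 B cell genes passed, with sums of 270 to 373 TPM in Control and 370 to 1089 TPM in Onway. The further values, in Control and Onway, were 100 and 84.7 TPM for the stromal sum and 10.4 and 19.8 TPM for the muscle sum. For the endothelial sum they were 59.2 and 54.2 TPM, and for the macrophage sum 176 and 209 TPM. For the megakaryocyte sum they were 939 and 1126 TPM, and for the B cell sum 272 and 550 TPM. The lower Onway level of the muscle, macrophage and megakaryocyte sums was thus not shown by the further pair. For the stromal and endothelial sums the further Control value lay below every Control library. Their further Onway value lay above every Onway library, so each pair was much closer together than the groups. The part of these cells in the levels of Adipoq, Fabp4, Lpl and Pparg was not tested, and in bulk marrow fewer cells of a type and less RNA per cell cannot be told apart.

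**Figure D4:**
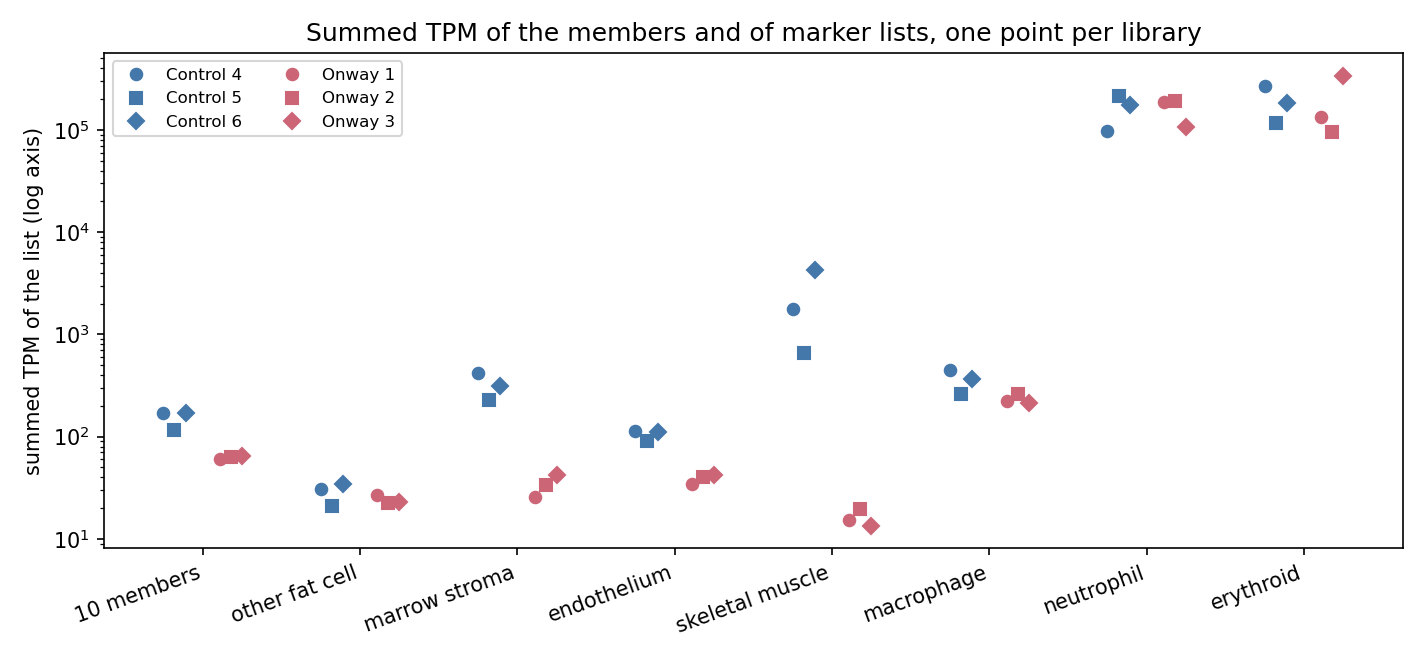
Summed TPM of the 10 members and of 7 marker lists in each library, on a log axis. The members, stroma, endothelium, muscle and macrophages lie lower in all Onway libraries, while the other fat cell, neutrophil and erythroid lists overlap between groups.

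Other genes that mark white fat cells were mostly near 0. Of 13 such genes 9 had a mean below 1 TPM, among them Lep (leptin), at 0.04 TPM in Control 6 and 0 elsewhere, and Adrb3, the adrenergic receptor of fat cells, at most 0.14 TPM. Adig, a gene switched on in fat cell differentiation, was at 0.78, 0 and 2.64 TPM in the Control libraries, and 0 was listed for each Onway library. These 3 were chosen after their values were seen. The summed level of the list was 30.9, 20.99 and 34.5 TPM in the Control libraries, and with 27.1, 22.4 and 22.9 TPM the Onway libraries overlapped them. Lipe and Slc2a4, the latter named after its value was seen, carried most of that sum. Of a mean Control sum of 28.8 TPM, Lipe gave 10.99 and Slc2a4 9.81. Of the Onway mean of 24.1 TPM they gave 13.8 and 8.24. Both overlapped between groups, so the overlap of the sum says little of the scarcer genes. None of the 4 tested genes passed, but Mrap and Thrsp were lower in every Onway library than in any Control library. Mrap, a melanocortin receptor accessory protein, was at 2.73, 1.77 and 2.59 TPM in Control and 0.44, 0.95 and 0.84 TPM in Onway (log2 fold change −0.95, adjusted p = 0.098), and Thrsp, a lipogenic protein, had a log2 fold change of −1.26 (adjusted p = 0.20). Lipe, the hormone-sensitive lipase that follows Pnpla2 in triglyceride breakdown, had one of 0.27 (adjusted p = 0.71).

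Of 7 tested adipokine and receptor genes 2 fell and none rose, where 2.99% of all tested genes were called lower and 0.233% higher. Rarres2, which encodes the adipokine chemerin, stood at 13.5 ± 1.72 TPM in Control and fell to 1.52 ± 0.623 TPM, by 2.55 on the log2 scale (SE 0.23, adjusted p = 0.0012), and its adjusted p stayed at or under 0.011 in all 15 alternatives. Lepr, the leptin receptor, passed the filter only through Control. It stood at 7.46 ± 2.96 TPM and fell to 0.760 ± 0.156 TPM (log2 fold change −2.20, adjusted p = 0.0077). Its adjusted p was 0.052 when Onway 2 was left out and 0.074 when Control 4 and Onway 3 both were. The further values, in Control and Onway, were 6.56 and 3.17 TPM for Rarres2 and 2.14 and 1.49 TPM for Lepr. The adiponectin receptor genes Adipor1 and Adipor2, named here as the partners of Adipoq after their values were seen, had log2 fold changes of 0.19 and 0.14 (adjusted p = 0.71 and 0.82).

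Over the 6 pathway lists, 4 of 63 tested genes were called lower, or 6.35%, beside 2.99% of all tested genes, and 0 higher. Of 17 tested genes of fatty acid uptake 1 fell: Fabp3, the carrier of heart and muscle, at 10.9, 4.86 and 19.6 TPM in Control and 0, 0 and 0.19 TPM in Onway (adjusted p = 0.0066), which like Lepr passed the filter only through Control. Leaving out Onway 2 gave 0.056, leaving out both Control 4 and Onway 3 gave 0.11, and a pseudocount of 5 gave 0.060. The further values of Fabp3 were 0.21 TPM for Control and 0.43 TPM for Onway. Of 14 tested genes of the droplet and of lipolysis none passed, with a median log2 fold change of 0.06. Fitm1, a muscle protein of droplet formation, was at 2.53, 1.50 and 6.97 TPM in Control and 0.27, 0.22 and 0.10 TPM in Onway (adjusted p = 0.075). G0s2, the inhibitor of the lipase encoded by Pnpla2, was at 29.4, 55.2 and 54.7 TPM in Control and 238, 126 and 48.8 TPM in Onway, with overlapping groups (adjusted p = 0.42), and Fitm2 had a log2 fold change of −0.48 (adjusted p = 0.37). Plin2, the droplet coat protein of cells other than fat cells, named after its value was seen, was at 53.7 ± 7.04 and 48.9 ± 11.4 TPM (adjusted p = 0.82).

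None of the 12 tested genes of triglyceride synthesis passed. Gpd1, which makes the glycerol backbone, had a log2 fold change of −1.31 (adjusted p = 0.090), Mogat2 one of −0.66 and Gpam one of 0.68 (adjusted p = 0.31 and 0.35). Of 11 tested regulators of fat cell differentiation none passed either. Cebpb, an early factor of the program that marrow myeloid cells also use, was at 7.64, 13.3 and 14.7 TPM in the Control libraries against 30.8, 42.0 and 84.2 TPM in Onway, without overlap (log2 fold change 1.97, adjusted p = 0.059). It passed without Onway 1 (adjusted p = 0.036), without both Control 4 and Onway 3 (0.047) and with only Ensembl transcripts summed (0.046), and its adjusted p was at most 0.16 elsewhere. The further values of Cebpb were 21.6 TPM for Control, above its libraries, and 23.1 TPM for Onway, below its libraries. Nr1h3, the oxysterol receptor of macrophages and fat cells, and Rxra, the partner of the Pparg receptor, had log2 fold changes of −0.94 and 0.65 (adjusted p = 0.17 and 0.25). Of 8 genes of heat-producing fat 2 were tested and 1 fell, where 2.99% of all tested genes did. This was Cox7a1, a respiratory subunit of muscle and brown fat (18.2, 9.74 and 46.8 TPM against 2.24, 2.16 and 1.09 TPM, adjusted p = 0.044). Its further values were 3.43 TPM for Control and 0.31 TPM for Onway. Its call ended without Control 4, Onway 1, Onway 2 or Onway 3 (0.13 for each), without both Control 4 and Onway 3 (0.21), with a pseudocount of 5 (0.12), with no filter (0.060) and with a mean of at least 5 TPM (0.054). Ucp1, the defining gene of brown fat, named after its value was seen, was at most 0.27 TPM.

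**Figure D5:**
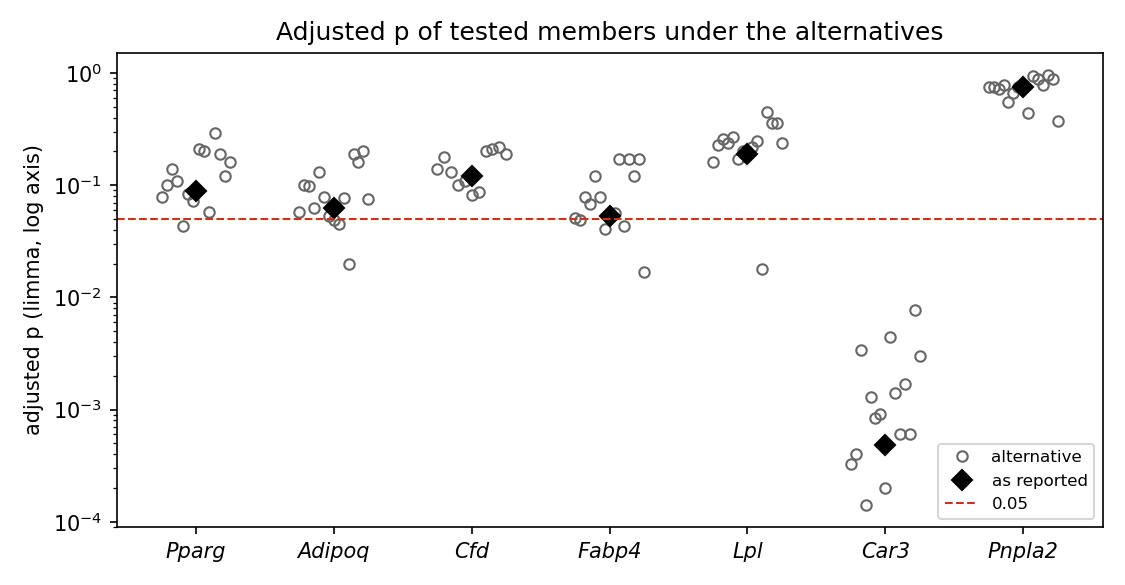
Adjusted p (limma, log axis) of the 7 tested members as reported (black) and under each alternative that could test them (open circles), with the threshold of 0.05 dashed. Car3 stays below the line throughout, Adipoq, Fabp4, Lpl and Pparg fall on both sides, and Cfd and Pnpla2 stay above it.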

How the data were processed

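RNA-seq of bone marrow cells was deposited as 1 table of TPM per transcript for 158850 transcripts, scaled by the authors to a sum of 1000000 in each library, with the authors' mean of TPM per group and each transcript's length, a whole number of bases in the deposited table. Per the labels, total RNA went through a column kit and a SMARTer kit for mRNA. GRCm38 and mm10 are the builds in the submitters' processing notes. The sources used here name no aligner or quantifier and do not say whether strand was used. Columns that are not Control were matched to the Onway titles by number. Every deposited mean could be that of 4 values, so a further library entered each mean.

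TPM was summed to 56496 genes, and 14192 with a mean of at least 1 TPM were tested on log2(TPM + 1) with limma 3.58.1 (trend and robust moderation, R 4.3.3), on 6 libraries with no covariate, two-sided, with Benjamini-Hochberg adjustment. In simulated data of 13875 genes modelled on Onway against Control, the test called 95.2%, 75.0% and 27.7% of genes lowered by 3, 2 and 1 on the log2 scale and 0.04% of unchanged genes. Of the deposited Ensembl transcripts 97.1% were in GENCODE M21 (GRCm38), the source of coordinates and codon counts. The members and lists were chosen with earlier results of these data known. Named genes are the 10 members and the 5 nearest patterns of Adipoq and Car3. From each pathway list and the list of other white fat cell genes, called genes up to 6 are named (otherwise the 3 of smallest p). The other marker lists are given as counts and sums. The single genes named from them (Cxcl12, Dcn, Csf1r and Adgre1) were not picked by this rule. The labels share no replicate numbers between groups and name no batch. The alternatives were 15, from other pseudocounts, filters and scalings to leaving out libraries.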

Additional observations from a re-analysis of the deposited data

How the results depend on the processing

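Direction held for all 7 tested members in every alternative that could test them (15 for Adipoq, Fabp4, Lpl, Car3 and Pnpla2, 14 for Pparg and 11 for Cfd), and Car3 was called lower in all 15. The number of members called lower, 1 as reported, was 2 with a pseudocount of 5, with median-of-ratios scaling, without trend or robust moderation, with only Ensembl transcripts summed and without both Control 4 and Onway 3, and ranged from 1 to 4 when 1 library was left out. The number of pathway list genes called lower (4 of 63 tested) was 2 with a pseudocount of 5 or a mean of at least 5 TPM and 1 without both Control 4 and Onway 3, and ranged from 1 to 6 when 1 library was left out. The number called higher (0) was 1 with only Ensembl transcripts summed and without both Control 4 and Onway 3, and ranged from 0 to 1 when 1 library was left out. The difference between Fabp4 and Adipoq changed sign, to 0.31, with a pseudocount of 0.1 (exact permutation p = 0.7). Over all genes, 424 were called lower and 33 higher. The counts were 183 and 20 with a mean of at least 5 TPM, 496 and 58 with median-of-ratios scaling and 207 and 97 without both Control 4 and Onway 3, and they ranged from 246 to 456 lower and 16 to 87 higher when 1 library was left out. The causes were not tested. No paired analysis was possible because the groups share no replicate number. Read depth is unknown, so what the values near 0 can show is not known.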
